A study of Mus musculus with 10 samples.

Results

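Vesicle miRNAs of brown fat and plasma were compared in exercised mice, using the 3 Exe BAT libraries and the 2 Exe plasma libraries among the 10 libraries of the series. The members were the 394 miRNAs listed in both deposited tables, matched by name. In the Exe libraries 382 of these had at least 1 read, 12 had none, and 202 passed the filter on low counts and were tested. The mice were C57BL/6J, the vesicles were small extracellular vesicles (sEV) from brown adipose tissue (BAT) or plasma, and small RNA was sequenced. The sample titles name the groups Exe and Sed, and the stated aim of the series was to compare vesicles without and with exercise. Every sample, Sed included, carries the same training label of 90 min sessions, 2 per day for 4 weeks, and the labels give neither the kind of exercise nor age. How the BAT vesicles were collected, and whether animals were pooled, is not given in the sources used here.

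Small extracellular vesicles are membrane particles that cells release with miRNAs inside. Brown fat burns lipid to make heat and is known to release vesicle miRNAs into blood, where vesicles of blood cells, platelets, endothelium and liver also circulate. A miRNA pairs with its target mRNAs mainly through its seed, bases 2 to 8, and a hairpin precursor can give a mature miRNA from its 5p arm, its 3p arm or both.

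Mature sequences were matched by name in RefSeq (GRCm38.p6) for 172 of the 202 tested miRNAs. They are shown 5′ to 3′ with the seed in capitals. The first set was among those with the largest differences toward BAT or was abundant there. Both miR-193 members share the seed ACUGGCC. The miR-193b-3p sequence lies at chr16:13449570-13449591 (+ strand), and a copy of miR-365-3p lies on the same strand at chr16:13453895-13453916, both in an intron of the antisense gene Gm15738 on the opposite strand.
miR-193b-3p: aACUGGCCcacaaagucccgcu
miR-193a-3p: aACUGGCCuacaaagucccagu
miR-365-3p: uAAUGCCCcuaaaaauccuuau
miR-378c: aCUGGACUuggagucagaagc
miR-22-3p: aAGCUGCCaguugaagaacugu
miR-30c-5p: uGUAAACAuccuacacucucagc

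The second set led in plasma. The 4 let-7 members share the seed GAGGUAG. The miR-1198-5p sequence lies at chrX:7807142-7807163 (+ strand) in an intron of Gripap1, and miR-196b-5p lies in an exon of Hoxa9.
let-7c-5p: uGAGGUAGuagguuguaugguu
let-7a-5p: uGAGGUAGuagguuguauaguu
let-7b-5p: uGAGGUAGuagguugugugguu
let-7i-5p: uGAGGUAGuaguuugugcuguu
miR-451a: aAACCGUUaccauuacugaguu
miR-1198-5p: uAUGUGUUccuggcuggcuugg
miR-196b-5p: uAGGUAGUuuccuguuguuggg

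The third set holds families whose members shared a seed and were called in opposite directions, listed with the BAT-high members first.
miR-32-5p: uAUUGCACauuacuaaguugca
miR-25-3p: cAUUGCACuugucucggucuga
miR-92a-3p: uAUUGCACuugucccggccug
miR-20a-5p: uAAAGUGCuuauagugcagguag
miR-106b-5p: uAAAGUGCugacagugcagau
miR-93-5p: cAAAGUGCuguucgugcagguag
miR-146b-5p: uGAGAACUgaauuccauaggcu
miR-146a-5p: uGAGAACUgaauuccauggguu
miR-221-3p: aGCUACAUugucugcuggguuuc
miR-222-3p: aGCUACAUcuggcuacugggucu

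The last pair are the arms of a single hairpin in an intron of Lpp, which were called in opposite directions. The 5p arm lies at chr16:24827868-24827889 and the 3p arm at chr16:24827908-24827929, both on the + strand.
miR-28a-5p: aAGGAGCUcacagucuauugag
miR-28a-3p: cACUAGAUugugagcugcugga

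The BAT libraries held 116584, 158795 and 172279 miRNA reads, and the plasma libraries 1209116 and 1766070. Reads were set to CPM (counts-per-million) on the TMM scale, which sets libraries level on the bulk of their miRNAs and on which 1 read was worth 3.63 to 6.12 CPM in BAT and 1.30 to 1.32 CPM in plasma. The TMM factors were 1.43, 1.55 and 1.62 in BAT and 0.642 and 0.431 in plasma. CPM here are therefore not shares of reads, and lie below the share in BAT and above it in plasma. The BAT libraries resembled each other, with Pearson correlations of log2 CPM between 0.947 and 0.972 over the 202 miRNAs. The plasma pair stood further apart, at 0.829, and correlations between a BAT and a plasma library were 0.378 to 0.475. With 1 read added to each count, 41 of the 202 miRNAs differed by over 8-fold between the 2 plasma libraries, against 2 among the BAT libraries. These correlations are across miRNAs, which are not independent replicates. No label says that the libraries come from separate mice, so the spread behind each p-value is that of libraries and may be technical. Each source has its own table, so source and batch cannot be told apart. In bulk vesicle RNA, fewer vesicles of a cell type and fewer copies per vesicle cannot be told apart either.

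The levels of most tested miRNAs differed between the 2 sources, while 157 of the 382 with a read had reads in every Exe library. Of 202 tested, 146 passed (72.3%), with 79 higher in BAT (39.1%) and 67 higher in plasma (33.2%). Those shares for BAT and plasma are the ones to set beside each list count below. BAT vesicles were led by miR-378a-3p, encoded within the Ppargc1b gene, and plasma vesicles by let-7c-5p. A miRNA passed at an adjusted p under 0.05 in edgeR's quasi-likelihood test, and a log2 difference is always BAT minus plasma. In all 146 the BAT libraries lay wholly above or wholly below the plasma libraries. Over all 202 tested, called or not, BAT lay wholly above in 92 and wholly below in 72, and 38 overlapped. Separation was thus common among tested miRNAs and adds little to a call. Of the 146 calls, 112 were past 8-fold, 73 toward BAT and 39 toward plasma. The median log2 difference over all tested was 0.29. Other scalings moved that median toward BAT, by 0.74 with DESeq2 size factors, 1.27 with upper-quartile factors and 1.34 with library size alone. Their splits of calls were 91 toward BAT and 60 toward plasma, 92 and 45, and 93 and 42. Under TMM, upper-quartile and library-size scaling alike, 121 miRNAs passed in the same direction, 79 toward BAT and 42 toward plasma. Without BAT replicate 2 the calls fell to 62 (25 and 37), and without plasma replicate 1 the BAT calls were 133.

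Reads were absent from plasma far more often than from BAT. In 62 of the 394 miRNAs every BAT library had reads and neither plasma library had any, and none showed the reverse. The plasma libraries held more miRNA reads, but had reads for only 246 and 190 miRNAs, against 318, 332 and 333 in BAT. A plasma miRNA could also be plentiful in 1 library and absent from the other, as miR-139-3p with 881 and 0 reads. A plasma count of 0 is thus weaker evidence of absence than depth alone would give. Of the 79 calls toward BAT, 21 rested on 0 plasma reads and 20 on 1 to 3, and 64 had a mean under 1000 CPM in BAT. The 21 passed the filter on low counts through BAT reads alone, so they could be called toward BAT only. Of the 67 calls toward plasma, none rested on 0 BAT reads and 5 on 1 to 3, and 13 had a mean under 1000 CPM in plasma.

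**Figure D1:**
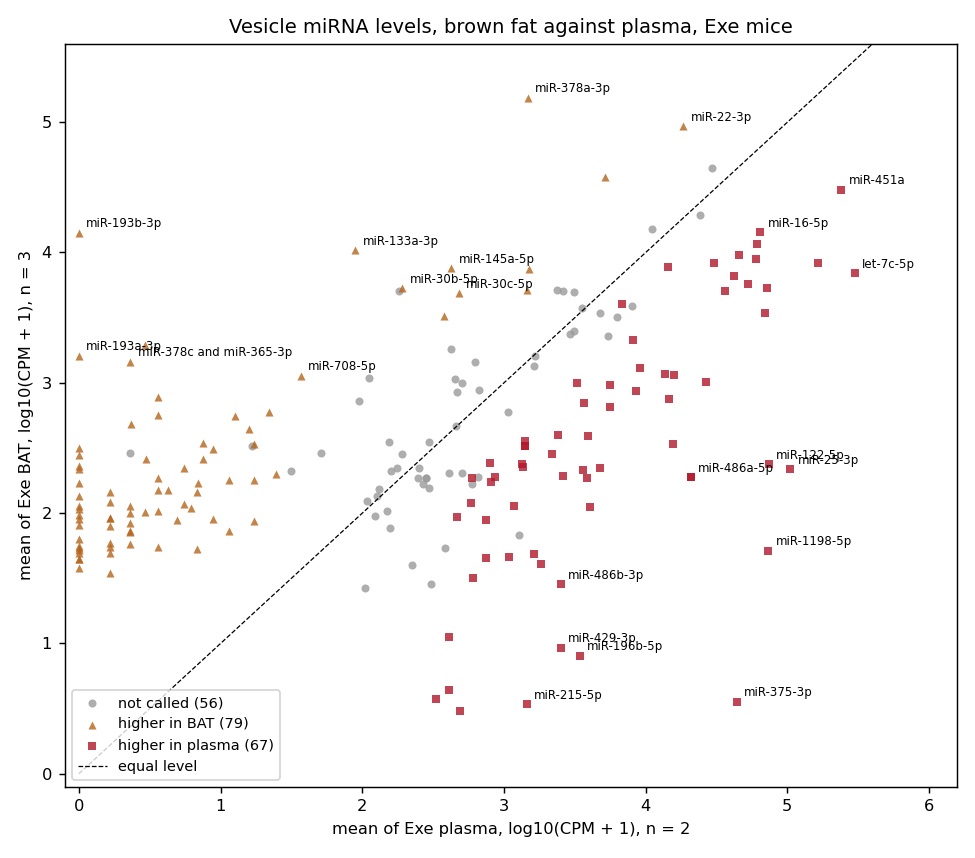
Mean level of each of the 202 tested miRNAs in Exe plasma (horizontal, 2 libraries) and Exe BAT (vertical, 3 libraries), both as log10(CPM + 1), with triangles and squares for the 79 and 67 miRNAs that passed and circles for the rest. The triangles at the left edge are miRNAs with few or no plasma reads, and let-7c-5p and miR-451a lie at the far right.

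Brown fat miRNAs gave the largest differences toward BAT. Of the 17 tested miRNAs in a list of those known to promote brown fat, 13 were higher in BAT, 1 was higher in plasma and 3 did not pass. Their median log2 difference was 6.39, or 5.39 with the 5 members lacking plasma reads set at their lower bounds, beside 0.29 over all tested. Those 5 are among the 13. They passed the filter through BAT reads alone and could be called toward BAT only, so they add no support to the count. Together the miRNAs of the list took 37.1%, 30.3% and 28.9% of the reads in the BAT libraries, and 2.47% and 1.16% in the plasma libraries. Without BAT replicate 2, 5 were called toward BAT, and with a mean of at least 50 counts required, 8 of 11. Most of the share was miR-378a-3p.

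The level of miR-378a-3p was 193426, 139356 and 129640 CPM in the BAT libraries, against 2335 and 617 CPM in plasma. It was the most abundant BAT miRNA, at 27.7%, 21.6% and 21.0% of reads, and the groups were far apart. The log2 difference was 6.71 ± 0.83 (SE, adjusted p = 0.00241). Its relative miR-378c had 216, 360 and 431 reads in BAT and 1 read in each plasma library, a ratio of 1128 in CPM (95% exact counting interval 312 to 9331). No sequence was matched for miR-378a-3p, so whether miR-378c reads are variants of that far more abundant relative was not checked.

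The miR-193b and miR-365 genes lie side by side, and both miRNAs are known to favour brown adipocyte formation. In BAT, miR-193b-3p had 2793, 3246 and 3312 reads, and in plasma it had none. It was thus at least 6986-fold higher in BAT, against a floor of 3 counts over the plasma group. Its relative miR-193a-3p had 311, 523 and 212 reads in BAT and none in plasma, which made it at least 781-fold higher. For miR-365-3p the BAT reads were 316, 653 and 346 and the plasma reads 3 and 0, a ratio of 982 (interval 335 to 4770). Neither plasma library reached the lowest BAT library for any of these, but they were named from miRNAs whose groups do not overlap. Intervals and floors cover counting error only. Among passenger strands, miR-193a-5p had 27, 26 and 37 BAT reads and none in plasma, and miR-365-2-5p had 4, 18 and 17 and none. With no plasma reads they passed the filter through BAT alone and could be called toward BAT only, so they add no support. Both calls were lost without BAT replicate 2. The adipocyte marker miR-196a-5p had 3, 0 and 2 reads in BAT and none in plasma and was not tested.

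The exceptions in this list were miR-26a-5p, miR-26b-5p, miR-328-3p and miR-378a-5p. The last had 983, 1228 and 1146 reads in BAT, but 2 and 272 in plasma, and did not pass by TMM (log2 difference 4.81 ± 1.89, adjusted p = 0.0684). With DESeq2, upper-quartile factors or library size alone miR-378a-5p was called toward BAT. Under upper-quartile factors or library size alone, 15 of the list were higher in BAT and 0 in plasma. miR-26b-5p was higher in plasma by TMM (log2 difference -1.73 ± 0.31), with -0.22 under library size alone. miR-26a-5p was abundant in both sources, its libraries overlapped, and its log2 difference of -0.32 ± 0.27 turned to 1.15 under library size alone.

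Of 13 tested miRNAs known to restrain brown fat, 3 were higher in BAT, 4 were higher in plasma and 6 did not pass. Their median was 0.09. Neither count exceeded the share over all tested, 39.1% toward BAT and 33.2% toward plasma. Without plasma replicate 1 the counts were 8 and 4, and without BAT replicate 2 they were 0 and 2. The member with the most BAT reads among the 3 was miR-133a-3p, a muscle miRNA that targets Prdm16. Its levels were 11756, 11946 and 7459 CPM in BAT and 177 and 0 CPM in plasma (log2 difference 6.87 ± 2.21, adjusted p = 0.0386). Leaving out any single BAT library ended that call. The highest adjusted p over its alternatives was 0.142. let-7i-5p, the member with the most plasma reads, was higher in plasma, as described with its family.

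The muscle miRNAs miR-1a-3p and miR-206-3p did not pass. Levels of miR-1a-3p were 4617, 4406 and 2728 CPM in BAT and 5627 and 10466 CPM in plasma (log2 difference -1.04 ± 0.40, adjusted p = 0.067), with 0.55 under library size alone. Levels of miR-206-3p overlapped, at 4017, 6286 and 5028 CPM in BAT and 4039 and 699 CPM in plasma. Of the 5 tested muscle miRNAs, 2 were higher in BAT and 1, miR-499-5p, was higher in plasma. The shares over all tested were 39.1% and 33.2%. Without BAT replicate 2 none of the 5 muscle miRNAs was called, and under upper-quartile factors or library size alone miR-499-5p was not called. The part of muscle RNA in the BAT libraries was not tested.

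Adipocyte miRNAs more generally were also BAT-high. Of 9 tested, 7 were higher in BAT and none in plasma, with a median of 3.07, and without BAT replicate 2, 4 were called. The second most abundant BAT miRNA was miR-22-3p, a regulator of lipid metabolism, at 93664, 96447 and 88382 CPM, against 19032 and 17750 CPM in plasma. These replicates lay close together, and the log2 difference was 2.34 ± 0.23 (adjusted p = 0.00135). miR-143-3p, known in adipocytes and smooth muscle, had 32960, 32333 and 48133 CPM in BAT and 6142 and 4216 CPM in plasma (log2 difference 2.87 ± 0.36). miR-103-3p, which acts on insulin signalling, had 157, 95 and 88 reads in BAT and 15 and 3 in plasma.

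The miR-29 and miR-30 families gave calls toward BAT and none toward plasma. Of miR-29, a set of repressors of collagen mRNAs, 4 of 4 tested members were higher in BAT (median 5.48), among them miR-29a-3p with 467, 944 and 812 reads in BAT and 63 and 511 in plasma. Without BAT replicate 2 none of the 4 passed. The miR-30 family had 6 of 9 higher in BAT and 3 that did not pass (median 4.81), and 3 without BAT replicate 2. Its steadiest member was miR-30c-5p, at 5394, 5360 and 3802 CPM in BAT and 331 and 629 CPM in plasma (log2 difference 3.34 ± 0.47). The levels of miR-30b-5p were 6221, 5796 and 4016 CPM in BAT, against 364 and 17.1 CPM in the plasma libraries, and its call was lost when any single BAT library was left out.

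**Figure D2:**
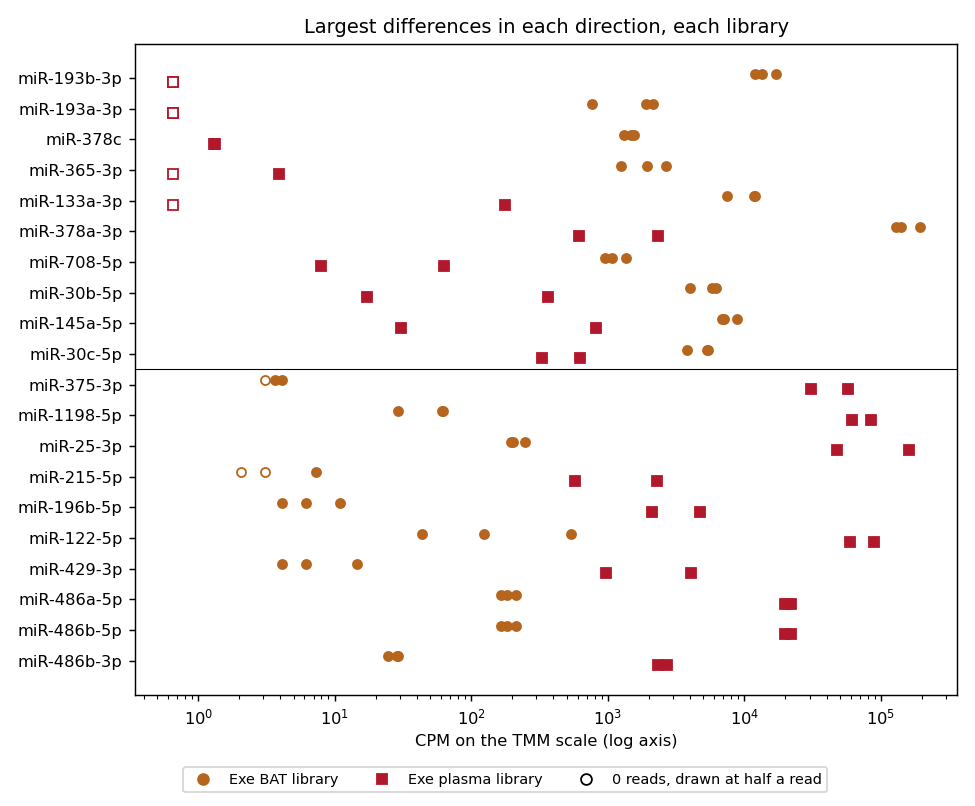
CPM on the TMM scale (log axis) of the 10 largest differences toward BAT (upper block) and the 10 toward plasma (lower block) among called miRNAs with a mean of at least 1000 CPM in the higher source, each point 1 library, with circles for BAT, squares for plasma and open symbols for libraries with 0 reads. The 20 were taken from miRNAs whose groups do not overlap, and miR-193b-3p and miR-193a-3p have only open plasma symbols.

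Plasma vesicles were led by the let-7 family, which restrains growth and differentiation programmes and is abundant in most mature tissues and in blood. Guide arms of let-7 and miR-98 took 38.2% and 40.8% of plasma reads and 7.87%, 9.02% and 6.94% of BAT reads. Of the 9 tested, 8 were higher in plasma and let-7e-5p did not pass, with a median of -3.33, and 7 passed under upper-quartile factors or library size alone. let-7c-5p stood at 8793, 7240 and 4785 CPM in BAT and 267042 and 332622 CPM in plasma, where it took 17.0% and 14.3% of reads. Every plasma library was far above every BAT library, and the log2 difference was -5.43 ± 0.38 (adjusted p = 0.000609). let-7a-5p had 8823, 8663 and 7401 CPM in BAT and 109078 and 219982 CPM in plasma (log2 difference -4.31 ± 0.39). let-7b-5p had 5952, 5302 and 4891 CPM in BAT and 73163 and 70574 CPM in plasma (log2 difference -3.74 ± 0.23). Other members had smaller differences. let-7g-5p had a log2 difference of -2.40 ± 0.55, and -0.72 under library size alone, where it did not pass. let-7e-5p overlapped between sources, with a log2 difference of -0.85 ± 0.53 (adjusted p = 0.213) that turned to 0.56 under library size alone.

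Blood cell miRNAs were higher in plasma as well, with exceptions. Of 6 tested red cell miRNAs, 5 were higher in plasma (median -4.79). miR-451a, the most abundant miRNA of red cells, had 24302, 22740 and 43899 CPM in BAT and 174176 and 305972 CPM in plasma. It was thus among the 10 most abundant miRNAs of both sources, and was higher in plasma at a log2 difference of -2.99 ± 0.45 (adjusted p = 0.00402). Its share of reads was 3.48%, 3.52% and 7.10% in BAT, highest in replicate 3. miR-486a-5p and miR-486b-5p have the same sequence and the same 30, 40 and 59 reads in BAT and 17010 and 14954 in plasma, so the reads belong to neither with certainty. Their log2 difference was -6.80 ± 0.28. The sixth red cell miRNA, miR-144-3p, went the other way, with 26, 34 and 133 reads in BAT and 8 and 2 in plasma (log2 difference 5.26 ± 1.29, adjusted p = 0.0169). That call was lost when any single BAT library, or plasma replicate 1, was left out. The part of red cell RNA in the BAT libraries was not tested.

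Among 9 leukocyte miRNAs, 6 were higher in plasma, 1 was higher in BAT and 2 did not pass (median -2.85). miR-150-5p of lymphocytes had 7103, 4208 and 3857 CPM in BAT and 29864 and 43148 CPM in plasma. The myeloid miR-223-3p had 716, 650 and 718 CPM in BAT and 5191 and 2196 CPM in plasma, a call lost when any single BAT library, or plasma replicate 1, was left out. The exception was miR-142a-3p, a miRNA of all blood lineages, with 13, 21 and 29 reads in BAT and 1 and 0 in plasma, which was not called without BAT replicate 2. Under upper-quartile factors or library size alone 4 leukocyte miRNAs stayed higher in plasma, and without BAT replicate 2, 3 did. Among 10 endothelial and platelet miRNAs, 5 were higher in plasma and 2 in BAT. Their median of -1.18 turned to 0.43 under library size alone, where 2 were higher in plasma and 5 in BAT. The platelet marker miR-191-5p had 7017, 5195 and 5036 CPM in BAT and 58640 and 46912 CPM in plasma. It was higher in plasma (log2 difference -3.20, edgeR adjusted p = 0.00102), at -3.28 to -1.72 over the settings that kept all replicates. miR-126a-3p of endothelium was abundant in both sources, at 34271, 54122 and 44973 CPM in BAT and 27518 and 30811 CPM in plasma, and did not pass by TMM (log2 difference 0.61 ± 0.29, adjusted p = 0.113). With DESeq2, upper-quartile factors or library size alone miR-126a-3p was called toward BAT. Its log2 difference was 0.56 to 2.15 over the settings that kept all replicates.

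Liver miRNAs were higher in plasma except for miR-194-5p, with 3 of 4 tested toward plasma. miR-122-5p, the dominant miRNA of hepatocytes, had 88, 30 and 12 reads in BAT and 45542 and 67227 in plasma. The BAT replicates themselves spread from 43.5 to 539 CPM, well below the plasma levels of 59133 and 88629 CPM, and the log2 difference was -8.31 ± 1.27 (adjusted p = 0.00402). miR-192-5p had 143, 133 and 147 reads in BAT and 4047 and 4546 in plasma. miR-215-5p, which shares the miR-192 seed UGACCUA, had 0, 0 and 2 reads in BAT and 444 and 1750 in plasma, a plasma-to-BAT ratio of 489 (interval 135 to 4044). miR-194-5p, encoded beside both, was higher in BAT, with 46, 49 and 49 reads against 6 and 1, a call that was lost when any single BAT library was left out (highest adjusted p over its alternatives 0.153).

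The largest single difference toward plasma was in miR-375-3p, a miRNA of pancreatic islets and other endocrine and epithelial cells. It had 0, 1 and 1 reads in BAT and 23766 and 43260 in plasma, a ratio of 14952 (interval 4139 to 123469). miR-1198-5p had 10, 15 and 8 reads in BAT and 47182 and 64483 in plasma (log2 difference -10.50 ± 0.53), among the 10 most abundant in plasma. miR-429-3p of epithelia had 1, 1 and 4 reads in BAT and 747 and 3078 in plasma. Other epithelial miRNAs went the other way, miR-182-5p with 40, 66 and 37 reads in BAT and none in plasma, and miR-96-5p with 21, 31 and 29 against 1 and 0. Of 5 epithelial miRNAs tested, 3 were higher in BAT and 1 in plasma, and without BAT replicate 2 none in BAT and 1 in plasma. The epithelial markers miR-141-3p, miR-200c-3p and miR-205-5p and the neuronal markers miR-124-3p and miR-9-5p were not tested. miR-141-3p had 1, 0 and 2 reads in BAT and 4 and 3 in plasma, and miR-200c-3p 2, 4 and 3 against 17 and 11. miR-205-5p lay the other way, with 14, 2 and 1 reads in BAT and none in plasma. miR-124-3p had 2, 1 and 0 reads in BAT and none in plasma, and miR-9-5p 2, 4 and 1 against 2 and 2. All 3 tested miRNAs encoded in the Hox clusters, miR-196b-5p, miR-10a-5p and miR-10b-5p, were higher in plasma (median -3.53), and 2 of them without BAT replicate 2 or under library size alone.

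**Figure D3:**
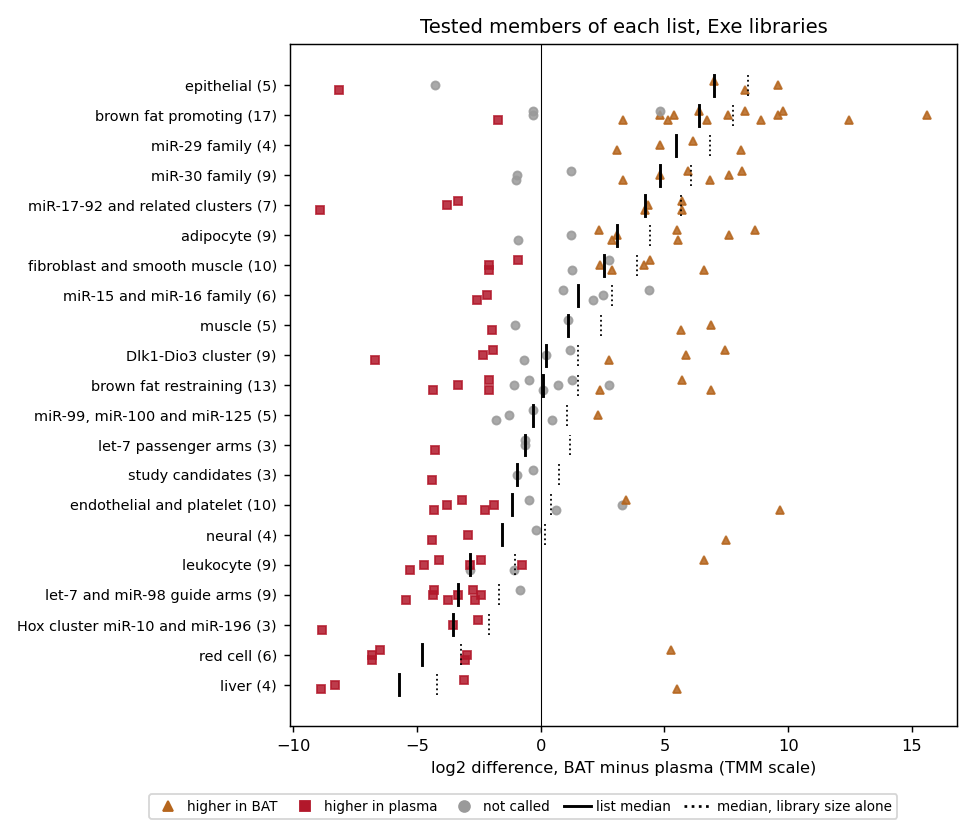
Log2 difference, BAT minus plasma, of each tested member of the lists with at least 3 tested members (number in brackets), with the list median under TMM (solid bar) and under library size alone (dotted bar). The brown fat promoting median lies at 6.39 and the let-7 guide arm median at -3.33, and library size alone moves every list to the right.

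The miRNAs that the study took up as candidates gave 1 call among 3, toward plasma. They were picked by the study from its own data, so their place here is no independent evidence. miR-128-3p had 35, 43 and 45 reads in BAT and 2526 and 3330 in plasma, and was higher in plasma with a log2 difference of -4.37 ± 0.38 (adjusted p = 0.00102). miR-125b-5p had 1549, 1144 and 1306 CPM in BAT, between the plasma levels of 2589 and 687 CPM (log2 difference -0.30 ± 0.63, adjusted p = 0.721). miR-30d-5p had 3110, 3641 and 2833 CPM in BAT and 2511 and 10022 CPM in plasma (log2 difference -0.97 ± 0.60, adjusted p = 0.207). The latter pair overlapped between sources, and their differences turned to 1.06 and 0.72 under library size alone.

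Some seed families held calls in both directions, as unrelated miRNAs also can with 39.1% of all tested called toward BAT and 33.2% toward plasma. Whether families did so more or less often was not tested. Of 129 seeds among the matched miRNAs, 25 were shared by at least 2 tested members, and 5 of these families held calls in both directions. That count was 3 under upper-quartile factors or library size alone, 1 without BAT replicate 2, and 0 with a mean of 50 counts required, which removes all BAT-high members of these families. In the family with the seed AUUGCAC, miR-25-3p had 32, 60 and 56 reads in BAT and 36898 and 122512 in plasma (log2 difference -8.92 ± 0.70). Its family member miR-92a-3p was also higher in plasma (-3.80 ± 0.35), while miR-32-5p was higher in BAT, with 28, 33 and 38 reads against 4 and 1 (5.39 ± 0.91). Among the members with the seed AAAGUGC, miR-93-5p had 126, 237 and 227 reads in BAT and 4657 and 8452 in plasma (-3.33 ± 0.37), while miR-17-5p, miR-20a-5p and miR-106b-5p were higher in BAT. Those 3 had few reads, miR-17-5p with 7, 12 and 19 in BAT and 3 and 1 in plasma.

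miR-146a-5p and miR-146b-5p, both known to damp innate immune signalling, share a seed. miR-146a-5p had 1047, 1185 and 791 CPM in BAT and 18118 and 34889 CPM in plasma, and was higher in plasma (-4.72 ± 0.41). miR-146b-5p had 35, 57 and 41 reads in BAT and 31 and 5 in plasma, and was higher in BAT (3.07 ± 1.08, adjusted p = 0.0498), a call lost when any single BAT library was left out. miR-221-3p was higher in BAT, with 18, 15 and 26 reads against 9 and 3, and its cluster neighbour miR-222-3p was higher in plasma, with 39, 42 and 44 reads against 3620 and 421. Neither call held when any single BAT library was left out, and that of miR-222-3p was also lost without plasma replicate 1. In the miR-181 family, miR-181b-5p was higher in BAT and miR-181a-5p higher in plasma by TMM alone (-0.76 ± 0.27), its difference turning to 0.80 under library size alone, and neither was called when any single BAT library was left out. Of all 146 calls, miR-181a-5p and miR-21a-5p were the ones whose direction changed with the scaling. Whole-family behaviour was seen in let-7, with 8 of 9 toward plasma, and in the 3 miR-29 members with the seed AGCACCA, all toward BAT.

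**Figure D4:**
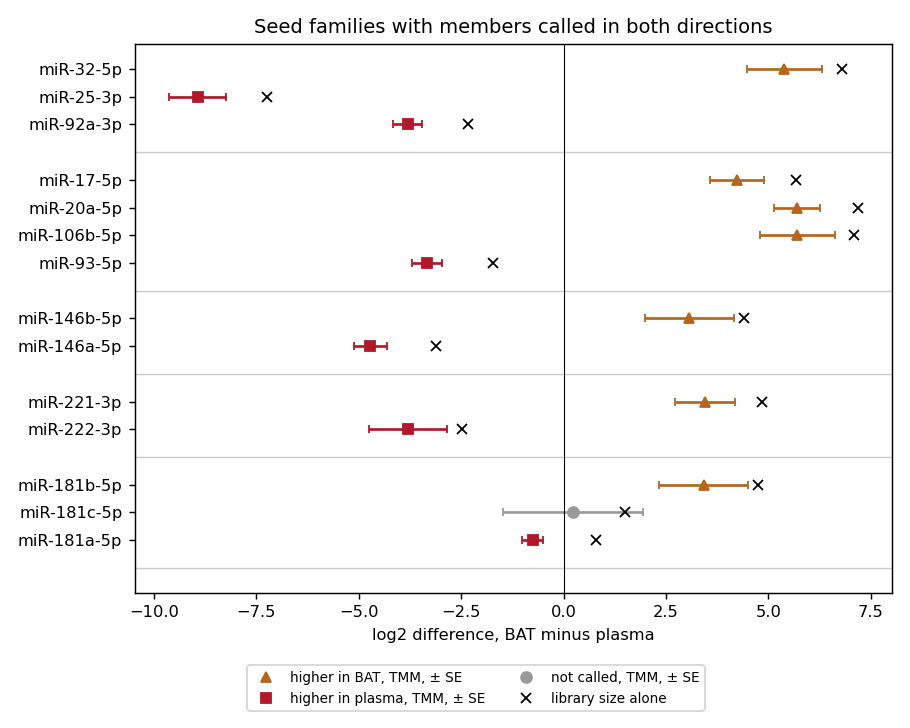
Log2 difference, BAT minus plasma, of the tested members of the 5 seed families with calls in both directions, with the SE as bars (TMM) and crosses for library size alone. Only miR-181a-5p among the called members changes side with the scaling, from -0.76 to 0.80.

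Calls of neighbouring hairpins were also compared, beside the same shares of 39.1% toward BAT and 33.2% toward plasma over all tested. Whether clusters held calls in both directions more or less often than unrelated miRNAs was not tested. Hairpins within 10000 bases on the same strand formed 16 clusters with at least 2 tested miRNAs at known positions, and 5 of them held calls in both directions. Without BAT replicate 2 no cluster did, with a mean of 50 counts required none did, and under library size alone 2 did. miR-106b, miR-93 and miR-25 are encoded within Mcm7, with miR-25-3p at chr5:138165332-138165353 and miR-106b-5p at chr5:138165787-138165807 (- strand). miR-106b-5p was higher in BAT, at 6, 14 and 14 reads against 1 and 0, while miR-93-5p and miR-25-3p were higher in plasma. miR-144-3p and miR-451a, described above, come from another such cluster, and the others were miR-221 with miR-222, miR-24-2 with miR-23a, and miR-136 with miR-127 and miR-434. In the miR-24-2 hairpin the call toward BAT was that of the passenger arm miR-24-2-5p, with 42, 55 and 57 reads in BAT and none in plasma. The far more abundant miR-24-3p, which 2 hairpins encode and which therefore had no single position, was higher in plasma (log2 difference -1.88 ± 0.37), as was miR-23a-3p (-2.26 ± 0.22).

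Arm use within a hairpin, which does not depend on how libraries are scaled, also differed between the sources. Of 45 hairpins with at least 10 reads over both arms in every Exe library, 18 passed (40%) in edgeR's diffSpliceDGE test, 9 with a higher 3p share in BAT and 9 with a higher 3p share in plasma. The clearest was miR-28a, with a 3p share of 6.82%, 9.73% and 8.13% in BAT and 98.7% and 99.6% in plasma (adjusted p = 0.000564). Its 5p arm had 82, 102 and 113 reads in BAT and 17 and 6 in plasma, and its 3p arm 6, 11 and 10 in BAT and 1267 and 1524 in plasma. The major arm was thus 5p in all BAT libraries and 3p in both plasma libraries. In the test of single miRNAs, the call of miR-28a-5p toward BAT was lost without BAT replicate 1 and without BAT replicate 2. That of miR-28a-3p toward plasma was kept in both.

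The 3p share of miR-199a was 15.5%, 29.2% and 26.0% in BAT and 66.4% and 79.4% in plasma (adjusted p = 0.0152), but its 3p sequence is the same as that of miR-199b, so these reads cannot be assigned. The 3p share of miR-151 was 2.47%, 5.81% and 4.29% in BAT and 21.4% and 70.8% in plasma. For miR-486a the 3p share was 38.8%, 32.2% and 24.4% in BAT and 1.37% and 5.63% in plasma. Its 5p reads are the same set as those of miR-486b, so this share cannot be assigned either, and the share of miR-486b over those 5p reads was 11.8%, 14.9% and 11.9% in BAT and 11.0% and 10.5% in plasma (adjusted p = 0.81). Many of the other hairpins used almost the same arm everywhere, with shifts of a few percent. Of the 9 hairpins with a higher 3p share in BAT, all but miR-486a had at most 11 reads of the 3p arm in any BAT library. Those reads were 1, 5 and 1 for miR-21a, 1, 3 and 1 for miR-10a, and 1, 2 and 1 for miR-122. They were 1, 0 and 2 for miR-204 and 0, 0 and 1 for miR-192, whose shares overlapped between sources. These 5 hairpins had no 3p reads in plasma. Calls toward plasma could rest on few reads too, as miR-148a with 2, 3 and 2 reads of the 5p arm in BAT and none in plasma. With 50 reads required, 12 of 34 hairpins passed, without plasma replicate 1, 38 passed, and without BAT replicate 1, 12 did.

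**Figure D5:**
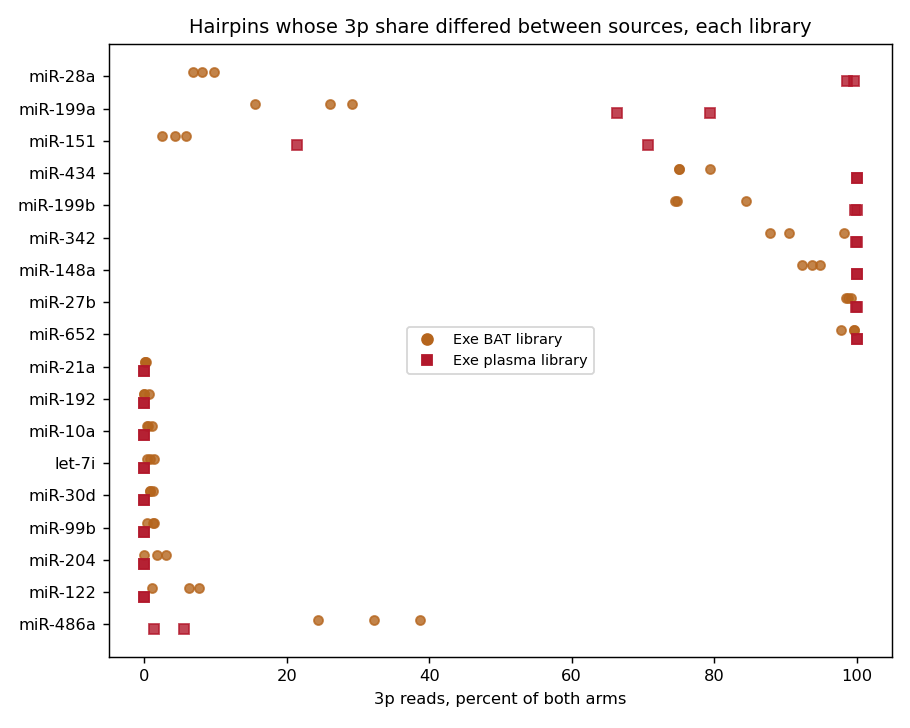
Share of 3p reads among both arms, in percent, in each Exe library for the 18 hairpins that passed, with circles for BAT and squares for plasma. miR-28a moves from at most 9.73% in BAT to at least 98.7% in plasma, while many hairpins lie at an edge with small shifts.

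Base composition was compared by direction of call. The median GC content was 45.5% in the 69 matched miRNAs higher in BAT and 45.5% in the 58 higher in plasma, against 47.6% in the 45 not called. Median U content was 27.3% in BAT-high and 31.8% in plasma-high miRNAs, and median A content 27.3% and 22.7%. The first base was U in 28 of 69 BAT-high miRNAs (40.6%), in 33 of 58 plasma-high miRNAs (56.9%) and in 87 of all 172 (50.6%). The motif GGAG, known as a sorting signal of vesicle miRNAs, was searched on the mature strand. It was present in 8 of 69 BAT-high miRNAs (11.6%), in 1 of 58 plasma-high miRNAs (1.72%) and in 13 of all 172 (7.56%). Members of a family share sequence and are not independent, so this is a description with no test.

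The difference between the sources was itself compared between Exe and Sed mice in a fit of all 10 libraries in 4 groups. Of 234 miRNAs tested, 68 had a source difference that was not the same in Exe and Sed (29.1%), 39 with a larger BAT-minus-plasma value in Exe and 29 with a smaller one. In 33 of the 68 the fitted difference had opposite signs in the 2 groups. That count uses signs alone, and a value could lie near 0 in 1 group, as that of miR-203-3p in Sed (-0.20 ± 0.83). It is thus not a count of reversals. Both let-7b-5p and let-7c-5p lay further toward plasma in Exe than in Sed. For let-7b-5p the log2 difference was -3.71 ± 0.43 in Exe and 0.55 ± 0.42 in Sed, a change of -4.26 ± 0.62 (adjusted p = 0.00264). In plasma this miRNA had 3945 and 4849 reads in the Sed libraries and 56347 and 53532 in the Exe libraries, and in BAT 3787, 4081 and 1932 in Sed and 972, 1289 and 1348 in Exe. miR-27b-3p did not pass in Exe, at 0.85 ± 0.44 in this fit, but was higher in plasma in Sed, at -3.17 ± 0.44. Without Exe plasma replicate 1 the count of such miRNAs was 119, and without a BAT library it was 36 to 42.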

How the data were processed

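Small RNA reads of vesicles from 3 Exe BAT and 2 Exe plasma libraries were compared, with the 5 Sed libraries used in the joint fit. Per the file headers, the authors deposited counts of reads for each mature miRNA in every library, in 1 table per source. The BAT table as deposited also holds RPM, values that equal the count over 1 total per library, which were not used here. A second whole number beside each plasma count, as deposited never above that count and of unstated making, served as an alternative. The submitters' processing notes list Bowtie 0.12.2 and the builds mm8 and mm9 without their role; trimming and counting settings are not given here.

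Counts were fitted as deposited with edgeR 4.0.16 in R 4.3.3 (glmQLFit and glmQLFTest, robust dispersions, TMM, filterByExpr, Benjamini-Hochberg over all tested). The SE is the log2 difference over the square root of F. Fits were tested on simulated data. Alternatives used DESeq2 1.42.0 and limma 3.58.1, other scalings, filters, a joint fit, a replicate block and each replicate left out. Fold changes against 0 reads are bounds against a floor of 3 counts per group. Plots used matplotlib 3.10.9.

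Named miRNAs were the study's candidates, the 10 largest differences in each direction with separate groups and a mean of at least 1000 CPM, the 10 most abundant per source, up to 4 of smallest p per list, hairpins past the arm threshold, the 10 smallest p of Exe against Sed, seed families with at least 3 tested members, and the 5 most abundant listed in 1 table only. Others, such as members of mixed seed families and of the marker and fat lists, were chosen after their values were seen. The members and lists were chosen with earlier results of these data known. Identical sequences share reads and are uncertain.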

Additional observations from a re-analysis of the deposited data

Results flagged for a closer look

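In 10 miRNAs, those with the smallest p in edgeR's test of the difference itself, the BAT-minus-plasma log2 difference was not the same in Exe and Sed mice. All 10 values below are Exe minus Sed, and the adjusted p lay between 0.00264 and 0.00311. Toward plasma in Exe, let-7b-5p moved by -4.26 ± 0.62 and let-7c-5p by -4.37 ± 0.72, and let-7c-5p had 8741 and 27930 reads in Sed plasma against 205666 and 252301 in Exe plasma. miR-10b-5p moved by -6.06 ± 1.05, with opposite signs in the groups (3.64 in Sed and -2.41 in Exe). miR-486b-3p moved by -7.50 ± 1.24, from 5 and 22 plasma reads in Sed to 2106 and 1759 in Exe. The fitted value of miR-486a-3p was -11.48, with 0 reads in both Sed plasma libraries and 237 and 892 in Exe plasma, so its size depends on the fit's handling of 0 reads. Toward BAT in Exe, miR-27b-3p moved by 4.02 ± 0.64, from 12036 and 15574 plasma reads in Sed to 1797 and 2942 in Exe. miR-31-5p moved by 8.08 ± 1.28, from 375 and 736 plasma reads to 4 and 2. For miR-203-3p the value was 8.64, from 97 and 268 plasma reads in Sed to 0 and 2 in Exe. The values of miR-193b-3p (8.65) and miR-122-3p (16.22) also rest on 0 reads. miR-193b-3p had 13 and 37 reads in Sed plasma and none in Exe plasma. miR-122-3p had 212 and 934 in Sed plasma and none in Exe plasma, and at most 2 in any BAT library. No explanation of these differences was tested.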

How the results depend on the processing

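Of 73 named calls, 29 passed in the same direction under every alternative that was run, 44 lost the call under at least 1, and of these miR-21a-5p also changed sign. Depth limits the BAT side, where 1 read is 3.63 to 6.12 CPM, and the low plasma counts behind many BAT calls. No label says that shared replicate numbers mark the same mouse, and with 2 shared pairs the pairing could not be checked further. With the replicate number as a block 35 miRNAs passed, 8 toward BAT and 27 toward plasma, and 34 in the comparison of Exe with Sed. In the arm test (edgeR) the block left 0 hairpins, 15 at an unadjusted p under 0.05. Requiring a mean of 50 counts left 162 miRNAs and 63 calls (29 and 34), library size alone gave 42 plasma calls, and no filter gave 134 BAT calls among 382 tested. Leaving out 1 library gave 62 to 213 calls, 25 to 133 toward BAT and 37 to 96 toward plasma, 12 to 38 hairpins, and 36 to 119 miRNAs for Exe against Sed, where a lone plasma library is assumed to vary like the other groups.

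The sign of small differences depended on the setting, and beyond the construction of each alternative the cause was not tested. With upper-quartile factors the log2 differences were 0.98 for miR-125b-5p, 0.41 for miR-30d-5p, 0.995 for miR-26a-5p, 0.29 for miR-1a-3p, 0.40 for miR-21a-5p, 1.26 for miR-218-5p, 0.78 for let-7a-1-3p and its identical let-7c-2-3p, and 0.011 for miR-99b-5p. With library size alone they were 1.06, 0.72, 1.15, 0.55, 0.57, 1.63, 1.20 and 0.12 in that order, and with a mean of 50 counts 1.04, 0.75, 1.14, 0.55, 0.55, 1.69, 1.24 and 0.10. DESeq2 gave 0.49 for miR-125b-5p, 0.0034 for miR-30d-5p, 0.53 for miR-26a-5p, 0.87 for miR-218-5p and 0.41 for let-7a-1-3p. limma-voom gave 1.46 for miR-218-5p, 3.21 for let-7a-1-3p and 1.67 for miR-125a-5p. The second plasma values gave 0.084 for miR-26a-5p and 0.31 for miR-218-5p, for which no filter gave 0.32 and the joint fit 0.34. The block gave 1.21 for miR-218-5p, 2.96 for let-7a-1-3p and 1.65 for miR-125a-5p. Without 1 library the range was -0.82 to 1.94 for miR-125b-5p, -0.81 to 0.48 for miR-30d-5p, -0.40 to 0.91 for miR-26a-5p, -0.97 to 0.30 for miR-21a-5p, -0.31 to 4.20 for miR-218-5p, -0.66 to 9.12 for let-7a-1-3p, -1.66 to 0.53 for miR-99b-5p and -2.72 to 7.49 for miR-125a-5p.

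Some list medians also changed sign. Those of the study candidates, the let-7 passenger arms and the miR-99, miR-100 and miR-125 list took the values just given for miR-30d-5p, let-7a-1-3p and miR-125b-5p, with 0.49 for the last list under limma-voom and under the block. The endothelial and platelet median was 0.19 with upper-quartile factors and 0.43 with library size alone, and the neural median 0.17 with library size alone and -1.55 to 1.17 without 1 library. A mean of 50 counts, which drops BAT-high members with few reads, gave -2.42 for the epithelial list and -2.03 for the miR-17-92 clusters, and the joint fit gave -0.0738 for the Dlk1-Dio3 cluster.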

Other observations

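Lists not described so far were split between the sources. Of 10 tested miRNAs of fibroblasts and smooth muscle, 5 were higher in BAT and 3 in plasma (median log2 difference 2.58, beside 0.29 over all tested), and without BAT replicate 2, 1 was called. The smooth muscle miRNA miR-145a-5p had 1437, 1673 and 1946 reads in BAT and 631 and 23 in plasma (log2 difference 4.16 ± 1.44, edgeR adjusted p = 0.0478). That call was lost when any single BAT library was left out and with the second plasma values, with a highest adjusted p of 0.16 over its alternatives. The 3 toward plasma were miR-21a-5p, miR-199a-3p and miR-199b-3p, of which the last pair share 1 sequence and 1 set of reads, and library size alone left none of the 3 called toward plasma. Of the 9 tested miRNAs of the imprinted Dlk1-Dio3 cluster, 3 were higher in each source, beside 39.1% toward BAT and 33.2% toward plasma over all tested. Under upper-quartile factors or library size alone, 3 of the cluster were higher in BAT and 1 in plasma. None was called without BAT replicate 2 or with a mean of 50 counts required. miR-127-3p of that cluster had 320, 583 and 559 reads in BAT and 6692 and 5766 in plasma (log2 difference -1.94 ± 0.25), and miR-136-5p had 10, 16 and 10 in BAT and 1 and 0 in plasma. Of the 7 tested miRNAs of the miR-17-92 and related clusters, 4 were higher in BAT and 3 in plasma, and 1 and 3 without BAT replicate 2. In the miR-15 and miR-16 family, 2 of 6 were higher in plasma and none in BAT by TMM, and 2 were higher in BAT and none in plasma under library size alone. Without BAT replicate 2 none was called. Its most abundant member, miR-16-5p, a cell cycle regulator plentiful in red cells, had 2188, 3608 and 4102 reads in BAT and 25213 and 72601 in plasma (log2 difference -2.16 ± 0.48 by TMM and -0.49 under library size alone).

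Some miRNAs were listed in 1 table only, and so entered no comparison. The BAT table alone listed 285, of which 213 had a read in an Exe BAT library, with 5919 reads in all (1.32% of that table's Exe reads). The most abundant was miR-6538 with 1907, 1067 and 1251 reads, followed by miR-709, miR-3470b, miR-133b-3p and miR-3470a. The muscle miRNA miR-133b-3p had 26, 59 and 39 reads. The plasma table alone listed 42, of which 13 had a read in an Exe plasma library, with 1778 reads in all (0.0598%). Of the 5 most abundant, each had reads in 1 plasma library only, among them miR-1969 with 0 and 557, miR-215-3p with 0 and 357 and miR-511-5p with 145 and 0. The level of these in the other source is not known.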
